A study of Mus musculus with 12 samples.

Results

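The genes described here encode subunits of the voltage-gated sodium channel, 4 for pore-forming alpha subunits (Scn1a, Scn2a, Scn3a and Scn8a) and 3 for auxiliary beta subunits (Scn2b, Scn3b and Scn4b). They were taken as an exact match to the gene name in the deposited table of gene expression, where 7 of 7 names were found among 55487 genes. All 7 had a mean above 1 FPKM (a fragment count scaled for the length of the transcript and the depth of the library) in at least 1 group, as did 16471 genes in all.

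Voltage-gated sodium channels open when a neuron depolarizes and carry the inward current of the action potential. An alpha subunit forms the pore, its voltage sensors and the inactivation gate, and beta subunits are single-pass membrane proteins that adjust gating and hold the channel at the cell surface. In the retina, the retinal ganglion cells (RGCs) are the main spiking neurons, with channels clustered at the axon initial segment and at the nodes of the optic nerve. Spiking amacrine cells also use them. Scn1a encodes NaV1.1, Scn2a NaV1.2, Scn3a NaV1.3 and Scn8a NaV1.6, the main channel of the mature initial segment and node.

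The 12 libraries came from mouse retina, 2 for each of 6 groups. WT mice were C57BL/6J (B6J). The shPax6 mice were WT mice infected with an AAV2.7m8 virus that carried GFP and a short hairpin RNA against Pax6, driven by the U6 promoter, and the JNK3 KO mice lacked JNK3, the product of Mapk10, throughout the body. The study's text gives an age of 2 months for infected mice, and the ages of the other groups are not given in the sources used here. Each genotype received an intravitreal injection of 1 μL PBS or 1 μL of 40 mM NMDA (40 nmol), an agonist of NMDA-type glutamate receptors that injures RGCs by overexcitation. RNA came from more than 3 retinas. The study calls its replicates biological, but whether the 2 libraries of a group came from separate pools of animals is not given in the sources used here, so the p-values measure the spread between these libraries, which may be technical. No retina infected with a control hairpin is among the 12 libraries, so the effects of infection and of the knockdown cannot be told apart.

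The 4 alpha subunit genes are close relatives, which bears on how reads can be assigned to one gene or another. Over the annotated transcripts (GENCODE M21, GRCm38), 0.85% of the distinct read-length words of Scn1a, 0.984% of those of Scn2a and 2.159% of those of Scn3a also occurred in another sodium channel gene, and none of those of Scn8a or of the beta genes did. The levels of Scn1a, Scn2a and Scn3a therefore carry a small uncertainty from reads that could be split among them. Scn3a, Scn2a and Scn1a are neighbours on chromosome 2 (GRCm38; chr2:65457118-65567627, chr2:65620771-65767447 and chr2:66270778-66440840). Scn8a lies at chr15:100869858-101045938, Scn3b at chr9:40269217-40291618, and Scn2b and Scn4b are neighbours at chr9:45117782-45130070 and chr9:45138395-45154152. No exon of another annotated gene overlapped their exons on either strand.

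The 2 libraries of NMDA-injected WT retinas stood apart from the other 10. Their FPKM summed to 805627 and 820180 against 541210 to 576922 elsewhere, and mitochondrially encoded genes took 3.02% and 2.98% of that sum against 5.91% to 10.2%. The response of WT retinas to NMDA also followed transcript length over all genes, with a median log2 difference of 1.03 for genes under 1 kb and -1.54 for genes over 6 kb. The corresponding medians ran from 0.18 to -0.13 in shPax6 retinas and from -0.11 to 0.26 in JNK3 KO retinas. The 7 channel genes have mean transcript lengths, weighted by FPKM, of 3556 (Scn3b) to 7378 bases (Scn2a). Each difference is therefore also given after length correction, in which every library's smooth trend on transcript length was subtracted. A gene is then compared with genes of like mean transcript length. Pax6 had 173.48 and 177.3 FPKM in WT PBS and 94.56 and 92.84 in shPax6 PBS libraries. After NMDA it had 55.42 and 53.81 FPKM in WT and 67.52 and 58.73 in shPax6 libraries. Mapk10 had 42.79 and 50.72 FPKM in WT PBS and 9.47 and 8.75 in JNK3 KO PBS libraries, so reads on this gene remained in the knockout. After NMDA, Mapk10 had 8.98 and 6 FPKM in WT and 6.65 and 13.77 in JNK3 KO libraries. In FPKM without length correction, neither targeted gene was thus clearly higher in WT after NMDA.

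In PBS-injected WT retinas, Scn8a was the highest of the 7 genes. Its FPKM, a level per length of transcript, was 21.22 and 19.23 in the 2 libraries, or 20.2 ± 1.41 (SD, n = 2). Scn2b followed with 15.7 and 15.67 FPKM and Scn1a with 13.56 and 12.91 FPKM. Scn2a (8.07 and 8.22 FPKM) and Scn3b (7.36 and 8.64 FPKM) overlapped and could not be ordered. Scn3a had 5.34 and 4.33 FPKM, and Scn4b, the scarcest, 2.06 and 1.87 FPKM. Apart from the overlapping pair, neighbours in this order did not overlap between libraries.

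**Figure D1:**
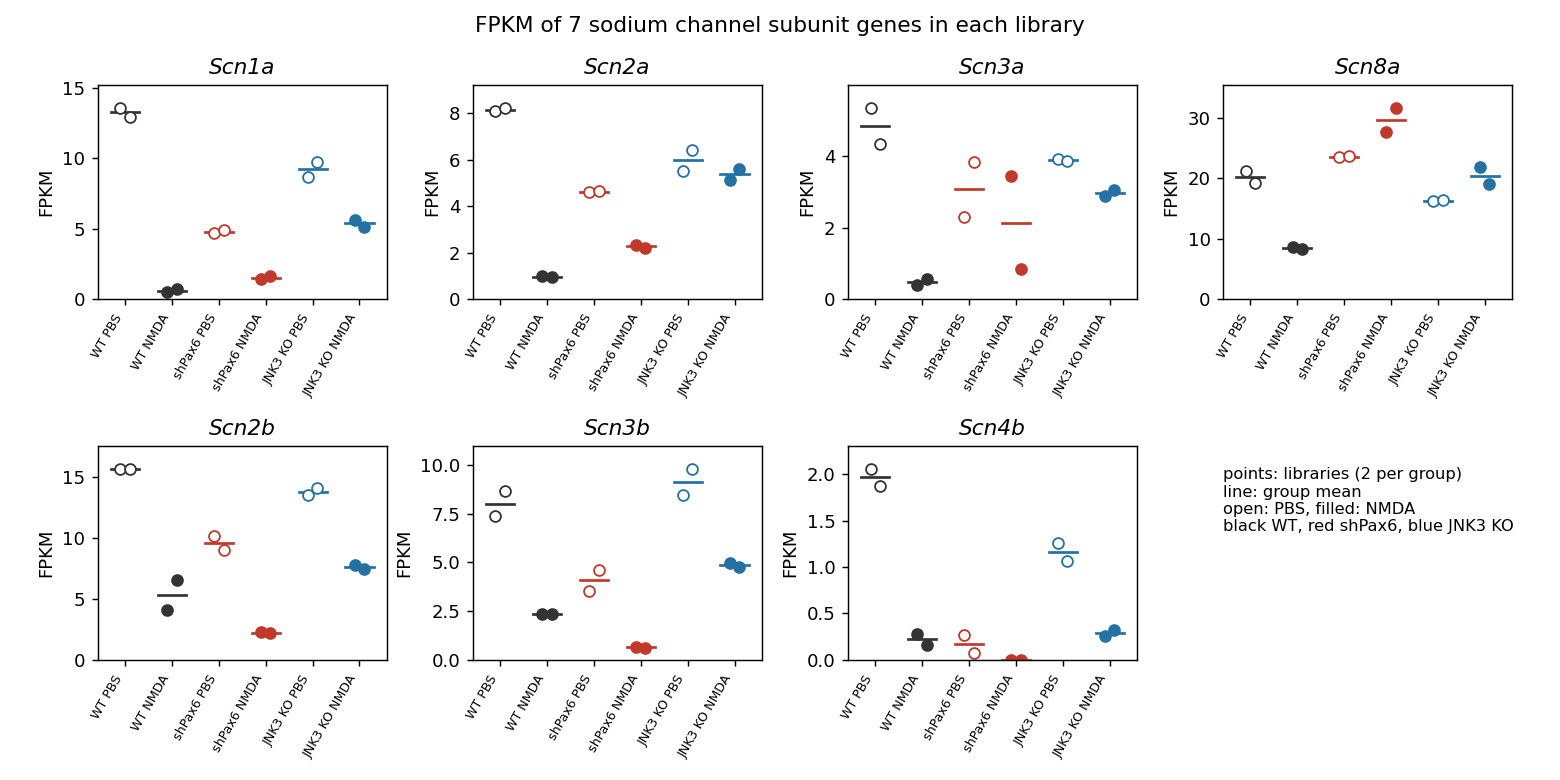
FPKM (y axis, linear, starting at 0) of each sodium channel subunit gene in the 6 groups (x axis). Points are the 2 libraries of a group and lines their mean. Scn1a fell from 13.56 and 12.91 to 0.5 and 0.69 FPKM with NMDA in WT retinas, and Scn8a was highest in the shPax6 NMDA libraries, at 27.64 and 31.59 FPKM.

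All 7 genes were lower after NMDA in WT retinas, although Scn8a did not remain so once mean transcript length was accounted for. Differences were tested on the log2(FPKM + 0.1) scale with limma over all 16471 genes, and calls were made where the p adjusted by Benjamini and Hochberg over all genes was under 0.05. By this rule 7 of 7 channel genes fell, where 33.8% of all genes tested were called lower and 26% higher. The median log2 difference of the 7 was -2.71 against -0.09 for all genes. After length correction 6 of 7 were called lower, with a median of -1.53, where 22.1% of all genes were called lower and 23.8% higher. All 7 also fell by more than 1 log2 unit before that correction, as did 20.9% of all genes.

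Scn1a had the largest fall. It went from 13.56 and 12.91 FPKM in the WT PBS libraries to 0.5 and 0.69 FPKM in the WT NMDA libraries, so that the NMDA libraries held 3.78% to 5.21% of the PBS mean. The log2 difference was -4.28 (SE 0.19, limma adjusted p = 1.66e-07), and -2.85 after length correction (adjusted p = 3.68e-06). The groups lay far apart, and the fall was called under 26 of 26 alternative settings.

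Scn2a and Scn3a, both expressed early in the development of many neurons, had smaller log2 differences than Scn1a. Scn2a went from 8.07 and 8.22 to 0.98 and 0.94 FPKM, a log2 difference of -2.96 (SE 0.16, limma adjusted p = 5.84e-07), or -1.53 after length correction. Scn3a went from 5.34 and 4.33 to 0.39 and 0.55 FPKM, a log2 difference of -3.12 with the wider error of 0.53 (limma adjusted p = 0.000754), or -1.76 after length correction (adjusted p = 0.023). Neither gene's NMDA libraries came near its PBS libraries.

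Scn8a had the smallest log2 difference of the alpha genes. It went from 21.22 and 19.23 to 8.54 and 8.2 FPKM, a log2 difference of -1.26 (SE 0.1, limma adjusted p = 6.94e-06), with no overlap between the groups. Its value after length correction was 0.09 (adjusted p = 0.509), the opposite sign. Relative to genes of like mean transcript length in the same libraries, a fall of Scn8a was thus not detected, whereas those of Scn1a, Scn2a and Scn3a were. The length used for Scn8a, 6731 bases, is a mean over transcripts of very unlike length. Among them were Scn8a-201 (11293 bases), Scn8a-205 (11232 bases) and Scn8a-209 (903 bases), so its corrected value is less certain.

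The 3 beta genes fell as well. Scn2b, whose product is linked to the alpha subunit by a disulfide bond, went from 15.7 and 15.67 to 4.07 and 6.52 FPKM (log2 difference -1.59, SE 0.2, limma adjusted p = 9.24e-05). The NMDA libraries were uneven but both lay well below PBS, and the value after length correction was -0.65 (adjusted p = 0.0237). Scn3b, a beta subunit that binds without a disulfide bond, went from 7.36 and 8.64 to 2.34 and 2.33 FPKM (log2 difference -1.73, SE 0.19, limma adjusted p = 4.29e-05), or -1.1 after length correction. Scn4b, which is disulfide-linked like Scn2b and can block the open channel, went from 2.06 and 1.87 to 0.28 and 0.16 FPKM (log2 difference -2.71, SE 0.54, limma adjusted p = 0.00179), or -1.65 after length correction (adjusted p = 0.0351). These 3 falls and those of Scn1a, Scn2a and Scn3a were called under every alternative run for them.

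In the same WT libraries, 12 of 15 RGC marker genes were called lower and 1 higher, and their summed FPKM went from 747 to 772 under PBS to 436 to 464 after NMDA. Of 14 amacrine cell markers, 11 were called lower and 1 higher, with sums of 728 to 735 and 409 to 435, and of 8 rod markers 1 was called lower and 5 higher. Other cell types had lower calls too: 4 of 4 horizontal, 6 of 8 bipolar (1 higher), 5 of 7 Muller glia (2 higher) and 3 of 7 cone markers (1 higher). After length correction these were 2 of 4 horizontal, 1 of 8 bipolar (2 higher), 4 of 7 Muller glia (1 higher) and 4 of 7 cone markers (2 higher). No RGC or amacrine marker was at 0 in both libraries of a group. As percent of the WT PBS mean, RGC markers stood at 57.4% to 61.1%, the summed alpha genes at 22.4% in both libraries and the summed beta genes at 26.1% to 35.1%. In bulk retina, fewer cells of a type and less RNA per cell cannot be told apart, and the part of these cells in the channel values was not tested.

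**Figure D2:**
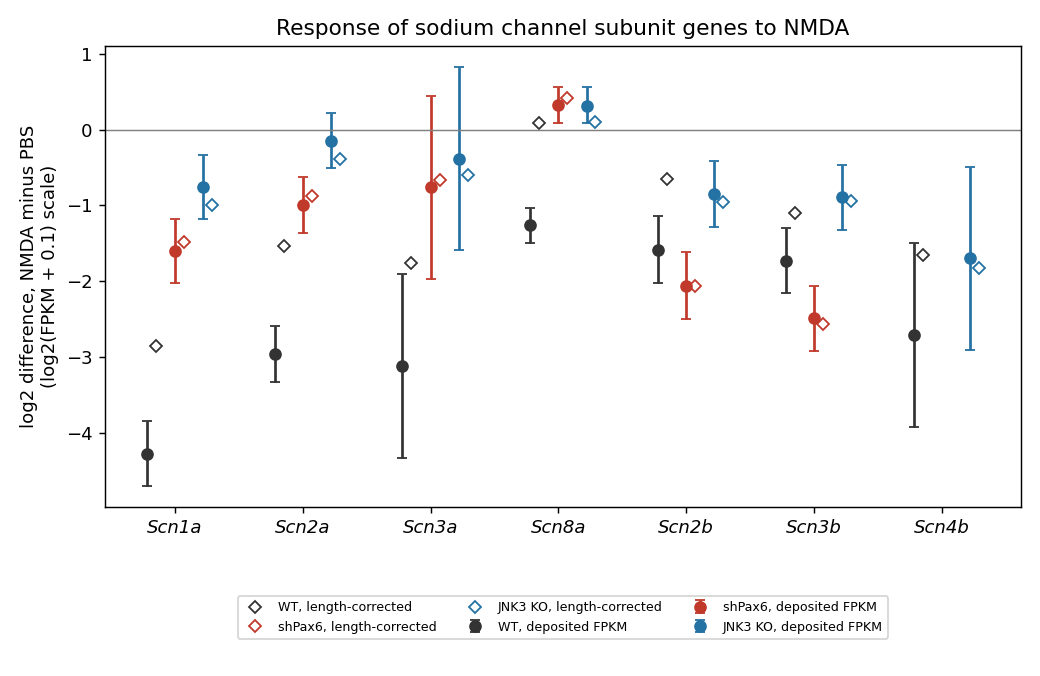
Log2 difference, NMDA minus PBS, on the log2(FPKM + 0.1) scale (y axis) for each sodium channel subunit gene (x axis) in WT, shPax6 and JNK3 KO retinas. Filled points are from the deposited FPKM with 95% confidence intervals from limma, open diamonds are after length correction, and no value is drawn for Scn4b in shPax6 retinas, where it was listed at 0 after NMDA. Scn8a was at -1.26 in WT retinas, or 0.09 after length correction, and at 0.33 and 0.32 in shPax6 and JNK3 KO retinas.

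In shPax6 retinas, NMDA was followed by lower Scn1a, Scn2a, Scn2b and Scn3b and by a small rise of Scn8a. Of the 7 genes 4 fell and 1 rose, where 11% of all genes tested were called lower and 19.1% higher. The median log2 difference of the 6 genes other than Scn4b, which was listed at 0 after NMDA, was -1.3 against 0.1 for all genes, and -1.18 after length correction. The length-corrected calls were 4 lower and 1 higher, where 15.2% and 13.7% of all genes were called. Scn1a, Scn2b and Scn3b fell by more than 1 log2 unit, 3 of 7 genes, where 4.94% of all genes did.

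Scn1a went from 4.68 and 4.91 FPKM in the shPax6 PBS libraries to 1.42 and 1.62 FPKM after NMDA, a log2 difference of -1.6 (SE 0.19, limma adjusted p = 0.000267). Scn2a went from 4.61 and 4.63 to 2.34 and 2.19 FPKM, a log2 difference of -1 (SE 0.16, limma adjusted p = 0.00168). Both pairs of groups were clear of each other. With the spread taken from the 4 shPax6 libraries alone, neither passed (adjusted p = 0.0692 for Scn1a and 0.117 for Scn2a), and only the beta genes Scn2b and Scn3b remained called.

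Scn8a went from 23.52 and 23.57 to 27.64 and 31.59 FPKM. Both NMDA libraries were above both PBS libraries, with a log2 difference of 0.33 (SE 0.1, limma adjusted p = 0.0418). This call was close to the threshold and held under 10 of 26 alternatives. It was lost without shPax6 NMDA library 2, where the log2 difference was 0.23 (adjusted p = 0.134), without shPax6 PBS library 1 (0.32, adjusted p = 0.112) or library 2 (0.33, adjusted p = 0.1), and on leaving out either WT PBS or either JNK3 KO PBS library, which moved only the shared error.

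Scn3a could not be placed. Its shPax6 libraries held 2.3 and 3.84 FPKM under PBS and 3.43 and 0.83 FPKM after NMDA, so that the groups overlapped. The log2 difference was -0.76 (95% confidence interval -1.97 to 0.45, limma adjusted p = 0.319). It was 0.2 without shPax6 NMDA library 2 (adjusted p = 0.691) and -1.73 without library 1 (adjusted p = 0.0119).

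The beta genes reached their lowest levels in the shPax6 NMDA libraries. Scn2b went from 10.18 and 9.04 to 2.28 and 2.17 FPKM, a log2 difference of -2.06 (SE 0.2, limma adjusted p = 7.83e-05). Scn3b went from 3.55 and 4.61 to 0.66 and 0.62 FPKM, a log2 difference of -2.49 (SE 0.19, limma adjusted p = 2.06e-05). Both falls were called under 26 of 26 alternatives, and length correction left them at -2.06 and -2.56. Scn4b was at 0.27 and 0.07 FPKM under PBS and was listed at 0 in both NMDA libraries, so no fold is given.

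In these libraries 9 of 15 RGC markers were called lower and 1 higher after NMDA, with sums of 273 to 283 FPKM under PBS and 135 to 157 after NMDA. Of the 14 amacrine markers 12 were called lower, with sums of 477 to 485 and 156 to 170. Rod markers were lower too, 7 of 8, and cone markers 7 of 7. The summed Muller glia markers went from 1700 to 1780 FPKM under PBS, against 818 to 820 in WT PBS libraries, to 2570 to 2740 after NMDA, with 3 of 7 called higher and 2 lower. Markers of microglia and macrophages went from 30.3 to 30.8 to 113 to 120 FPKM, with 2 of 6 called higher, and those of the retinal pigment epithelium from 50.7 to 51.8 to 3.44 to 6.16 FPKM, with 3 of 3 tested called lower. The part of these cell types in the channel values was not tested.

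In JNK3 KO retinas, Scn1a, Scn2b and Scn3b fell after NMDA by less than 1 log2 unit each. These were 3 of the 7 genes, with none higher, where 6.1% of all genes tested were called lower and 4.33% higher. The median of the 7 was -0.76 against -0.01 for all genes, and -0.94 after length correction, when the same 3 were called (5.18% of all genes lower, 3.43% higher). None of the 7 was both called by limma and lower by more than 1 log2 unit, a rule that 1.87% of all genes passed. The calls were fragile, since leaving out any 1 of the 4 JNK3 KO libraries left 0 of 7 genes called, with adjusted p up to 0.196 for Scn1a, 0.16 for Scn2b and 0.128 for Scn3b. Leaving out either WT PBS library, which changes only the shared error, left 1 call, Scn3b.

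Scn1a went from 8.69 and 9.71 FPKM under PBS to 5.64 and 5.13 FPKM after NMDA, a log2 difference of -0.76 (SE 0.19, limma adjusted p = 0.0332), or -1 after length correction. The NMDA libraries lay below the PBS libraries, as they did for Scn2b (13.51 and 14.13 to 7.78 and 7.45 FPKM) and for Scn3b (8.45 and 9.8 to 4.97 and 4.77 FPKM). The log2 difference was -0.85 for Scn2b (SE 0.2, limma adjusted p = 0.0258) and -0.89 for Scn3b (SE 0.19, limma adjusted p = 0.0192).

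Scn2a overlapped between PBS and NMDA in the JNK3 KO, and Scn8a, Scn3a and Scn4b were not called. Scn2a had 5.5 and 6.43 FPKM under PBS and 5.12 and 5.61 after NMDA, a log2 difference of -0.15 (95% confidence interval -0.51 to 0.22). Scn8a had 16.24 and 16.31 FPKM under PBS and 21.86 and 18.95 after NMDA, a log2 difference of 0.32 (95% confidence interval 0.09 to 0.56) whose limma adjusted p was 0.0888. Scn3a had 3.92 and 3.85 against 2.88 and 3.04 FPKM, with no overlap, but its interval ran from -1.59 to 0.83 because its error was shared with the uneven shPax6 libraries. Scn4b went from 1.26 and 1.07 to 0.26 and 0.32 FPKM, a log2 difference of -1.7 (SE 0.54) that missed the threshold (limma adjusted p = 0.0809) and passed it under 9 of 25 alternatives, among them leaving out any of the 4 shPax6 libraries (adjusted p = 0.0277 to 0.0365).

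RGC markers in the JNK3 KO libraries summed to 704 to 753 FPKM under PBS and 237 to 238 after NMDA, and 9 of 15 were called lower and none higher. Amacrine markers summed to 700 to 701 and 384 to 385, and 6 of 14 were called lower, as were 6 of 8 rod and 6 of 7 cone markers. As percent of the WT PBS mean, the summed RGC markers were at 31.2% to 31.3% after NMDA in the JNK3 KO and at 57.4% to 61.1% in WT retinas. Gene by gene, the median log2 difference of the 15 markers was -1.48 in WT and -1.56 in JNK3 KO retinas, and the WT response minus the JNK3 KO response had a median of -0.22, with 3 called lower and 3 higher. Without length correction, Scn1a was at 38.8% to 42.6% in the JNK3 KO and at 3.78% to 5.21% in WT retinas. The part of these cells in the channel values was not tested.

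**Figure D3:**
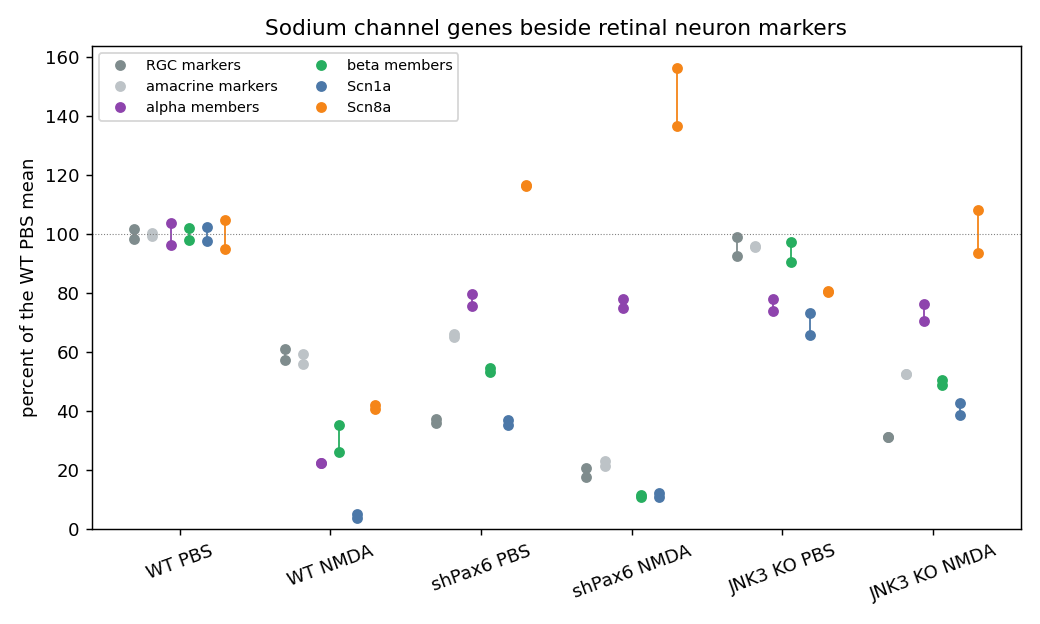
Summed FPKM of RGC markers, amacrine markers, alpha genes and beta genes, and FPKM of Scn1a and Scn8a, as percent of the WT PBS mean (y axis, linear, starting at 0) in the 6 groups (x axis). Points are the 2 libraries of a group, joined by a line, and no value is length-corrected. In shPax6 retinas after NMDA the beta genes stood at 10.9% to 11.5% and Scn8a at 137% to 156%, and in JNK3 KO retinas RGC markers stood at 31.2% to 31.3%.

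Before any NMDA, shPax6 retinas already held less of 5 of the 7 transcripts than WT retinas. Scn1a, Scn2a, Scn2b, Scn3b and Scn4b were called lower and none higher, where 11.2% of all genes tested were called lower and 5.36% higher. After length correction 4 were called lower, where 8.82% of all genes were lower and 7.72% higher. Differences of more than 1 log2 unit were called for 2 of 7, where 3.9% of all genes passed. Scn1a was at 4.68 and 4.91 FPKM against 13.56 and 12.91, a log2 difference of -1.45 (SE 0.19, limma adjusted p = 0.00102) that was called under 26 of 26 alternatives. Scn4b was at 0.27 and 0.07 FPKM against 2.06 and 1.87, a log2 difference of -3.04 (SE 0.54, limma adjusted p = 0.00513). Its size depends on the pseudocount, and it was called under 24 of 25 alternatives.

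The other 3 called differences were smaller. Scn2a differed by -0.8 (SE 0.16, limma adjusted p = 0.00969), Scn3b by -0.96 (SE 0.19, limma adjusted p = 0.00894) and Scn2b by -0.7 (SE 0.2, limma adjusted p = 0.0394), each with both shPax6 libraries below both WT libraries. Without WT PBS library 2, 2 of the 5 calls were left (Scn1a and Scn4b), and without WT PBS library 1, 3 were left (those and Scn3b). Scn2b passed under 9 of 26 alternatives and was lost on leaving out any library other than those of WT NMDA (log2 difference -0.79 to -0.62). After length correction its log2 difference was -0.59 (adjusted p = 0.0721).

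Scn8a and Scn3a were not called. Scn8a was at 23.52 and 23.57 FPKM in shPax6 PBS and 21.22 and 19.23 FPKM in WT PBS libraries, a log2 difference of 0.22 (95% confidence interval -0.02 to 0.46). RGC markers were 10 of 15 called lower in the same comparison, with sums of 273 to 283 against 747 to 772 FPKM, and amacrine markers 6 of 14. Rod markers were called higher in 8 of 8 and cone markers in 6 of 7. Their part in the channel values was not tested.

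Between JNK3 KO and WT retinas under PBS, 0 of 7 channel genes passed at the adjusted threshold of limma, where 0.407% of all genes tested were called lower and 1.1% higher. None passed after length correction either (0.213% of all genes lower, 0.395% higher) or with a limit of 1 log2 unit (0.127% lower). At an unadjusted p under 0.05, 3 of 7 were lower and none higher, where 5.97% of all genes were lower and 9.16% higher. These were Scn1a at 8.69 and 9.71 against 13.56 and 12.91 FPKM (log2 difference -0.52, 95% confidence interval -0.94 to -0.1), Scn2a (-0.45, interval -0.81 to -0.08) and Scn8a at 16.24 and 16.31 against 21.22 and 19.23 FPKM (-0.31, interval -0.55 to -0.07). After length correction the log2 differences were -0.27, -0.19 and -0.08. The beta genes Scn2b (-0.18, interval -0.62 to 0.26) and Scn3b (0.19, interval -0.24 to 0.62) had values closer to 0. RGC markers summed to 704 to 753 FPKM in JNK3 KO and 747 to 772 in WT libraries, and none was called. Rod markers were called higher in 6 of 8 and lower in none, before and after length correction. Of 8 bipolar markers 1 was called lower, and of 7 Muller glia markers 1 was called higher. The part of these cells in the channel values was not tested.

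The difference between responses was tested directly, as the WT response minus that of shPax6 or JNK3 KO retinas. These 2 tests share the WT libraries, whose length trend is described above. WT minus shPax6, 4 of 7 genes were called lower (a more negative response in WT) and 1 higher, where 31.4% and 18.3% of all genes tested were. WT minus JNK3 KO, 5 of 7 were called lower and none higher, where 27.9% and 23.5% were. After length correction the counts were 1 lower and 2 higher against shPax6 (16.8% and 19.4% of all genes) and 2 lower and 0 higher against JNK3 KO (15.8% and 18.4%). Without that correction but with a limit of 1 log2 unit, 4 of 7 were called lower in each, where 21.7% and 20.1% of all genes were.

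Scn1a was the gene whose response differed most firmly. Its response was more negative in WT than in shPax6 retinas (-2.68 on the log2 scale, SE 0.26, limma adjusted p = 5.33e-05) and than in JNK3 KO retinas (-3.51, SE 0.26, limma adjusted p = 7.07e-06). With length correction the differences were -1.36 (adjusted p = 0.00305) and -1.85 (adjusted p = 0.000601). Each was called under 26 of 26 alternatives.

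Scn2a differed by -1.96 against shPax6 (SE 0.23, limma adjusted p = 0.000137) and by -2.81 against JNK3 KO (SE 0.23, limma adjusted p = 1.12e-05). Length correction took these to -0.64 (adjusted p = 0.0517) and -1.14 (adjusted p = 0.00437), so that the first was no longer called. Scn8a differed by -1.59 against shPax6 (SE 0.15, limma adjusted p = 3.75e-05) and by -1.58 against JNK3 KO (SE 0.15, limma adjusted p = 2.45e-05), and length correction took these to -0.33 (adjusted p = 0.105) and -0.01 (adjusted p = 0.958). Scn3a differed by -2.36 and -2.74 with an error of 0.75 (limma adjusted p = 0.028 and 0.0134), and neither was called after length correction. The first was lost without either WT PBS or WT NMDA library, shPax6 PBS library 1 or either JNK3 KO NMDA library (-2.56 to -2), and the second without WT PBS library 1 (-2.59) or WT NMDA library 1 (-2.54).

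Among the beta genes, Scn3b was called in both differences, with opposite signs. The WT response was less negative than that of shPax6 retinas by 0.76 (SE 0.27, limma adjusted p = 0.0415) and more negative than that of JNK3 KO retinas (-0.84, SE 0.27, limma adjusted p = 0.0258). The first held under 9 of 26 alternatives and fell to 0.19 with a pseudocount of 1 (adjusted p = 0.468), while length correction raised it to 1.46 (adjusted p = 0.00298). Leaving out any library but shPax6 PBS library 1 or shPax6 NMDA library 1 ended that call (0.57 to 0.87), and the JNK3 KO libraries among them enter only through the shared error. The second held under 17 of 26 alternatives and was lost without WT PBS library 2 (-0.73), WT NMDA library 2 (-0.84), JNK3 KO PBS library 1 (-0.74) or either JNK3 KO NMDA library (-0.81 and -0.87), and length correction took it to -0.15 (adjusted p = 0.703). For Scn2b the difference against shPax6 was 0.47 (SE 0.28, limma adjusted p = 0.187), which turned to -0.03 in TPM and reached 1.41 with length correction (adjusted p = 0.00417) and 0.81 without WT NMDA library 1 (adjusted p = 0.00725). Against JNK3 KO it was -0.74 (SE 0.28, limma adjusted p = 0.0506), with 0.31 after length correction and -1.07 without WT NMDA library 2 (adjusted p = 0.00181). Scn4b was called in neither difference, but passed under 4 of 25 alternatives against shPax6 (adjusted p = 0.0107 to 0.0493, with a pseudocount of 0.5 or 1, no intensity trend, or without shPax6 PBS library 1) and under 1 of 25 against JNK3 KO (adjusted p = 0.0445, with the spread of the groups compared alone). No fold is given against shPax6, where it was listed at 0 after NMDA.

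The composition of the alpha pool moved with these changes. The 4 alpha genes have mean transcript lengths of 6731 to 7378 bases, and a share within a library does not depend on how that library was scaled. The Scn8a mean covers transcripts of very unlike length, among them 11293 and 903 bases. The part of the WT length trend in its share was not tested. The shares were computed after the values had been seen and are given as a description. Scn8a made up 44% and 43% of the summed alpha FPKM in WT PBS libraries and 82% and 79% in WT NMDA libraries. In shPax6 libraries it made up 67% and 63.8% under PBS and 79.4% and 87.2% after NMDA. The JNK3 KO libraries had 47.3% and 44.9% under PBS and 61.6% and 57.9% after NMDA. In each genotype both NMDA libraries had a higher Scn8a share than both PBS libraries.

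Scn1a took the opposite course. Its share was 28.1% and 28.9% in WT PBS and 4.8% and 6.65% in WT NMDA libraries. In shPax6 libraries it was 13.3% in both PBS libraries and 4.08% and 4.47% after NMDA, and in the JNK3 KO 25.3% and 26.7% under PBS and 15.9% and 15.7% after NMDA. Among the beta genes, Scn2b was the largest in each library, with 56.5% to 77.8% of the beta sum.

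**Figure D4:**
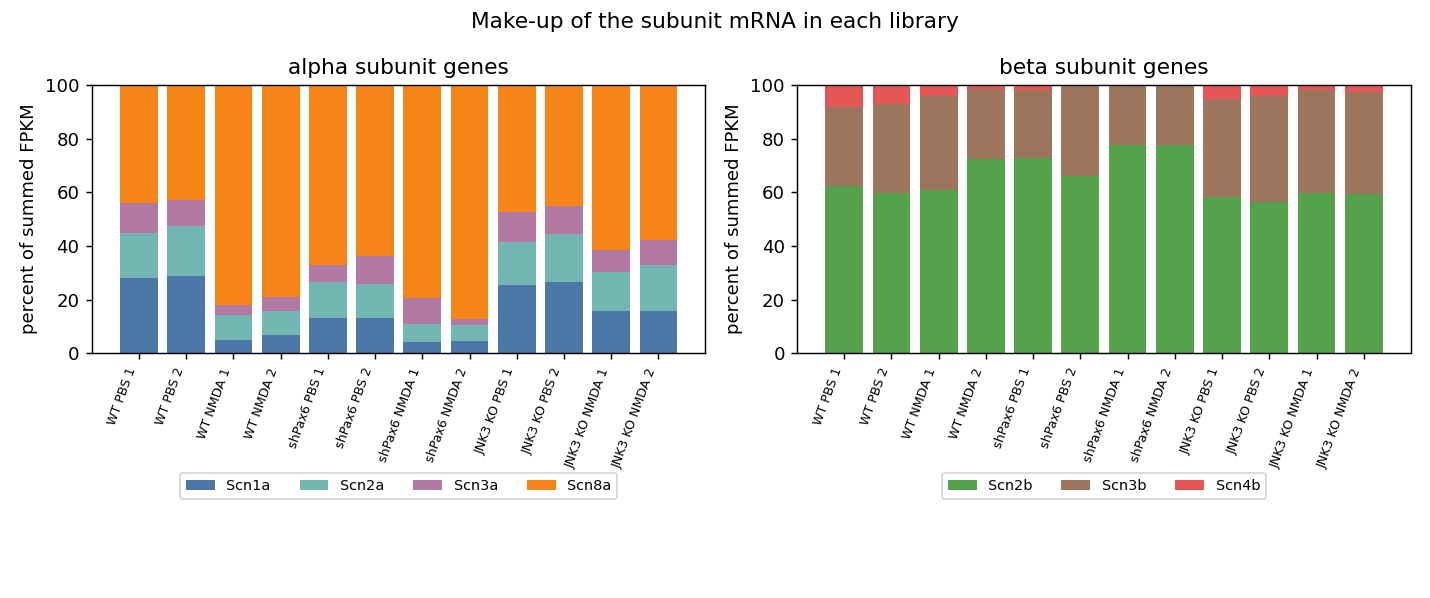
Share of each alpha gene in the summed FPKM of the 4 alpha genes (left) and of each beta gene in that of the 3 beta genes (right), in percent (y axis), for each of the 12 libraries (x axis). Scn8a filled 43% to 44% of the alpha sum in WT PBS libraries and 79% to 82% in WT NMDA libraries.

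The balance of alpha to beta transcripts, also computed after the values had been seen, was farthest to the alpha side in the shPax6 NMDA libraries. The summed alpha FPKM was 35.1 and 37 under PBS and 34.8 and 36.2 after NMDA in shPax6 libraries, while the summed beta FPKM was 14 and 13.7 and then 2.94 and 2.79. The ratio of the sums was thus 2.51 and 2.69 under PBS and 11.8 and 13 after NMDA. In JNK3 KO libraries it was 1.48 and 1.45, then 2.73 and 2.61, and in WT libraries 1.92 and 1.71, then 1.56 and 1.15. The alpha genes are longer (6731 to 7378 bases) than the beta genes (3556 to 4982 bases), and these ratios are not length-corrected. The length trend of the WT NMDA libraries therefore enters their ratios, and its part was not tested. Scn8a carried most of the alpha sum in shPax6 NMDA libraries, and the other alpha genes were at 0.83 to 3.43 FPKM there.

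At the level of annotated transcripts, 24 of the 58 transcripts of the 7 genes had a group mean above 1 FPKM. In WT retinas 10 of 24 were called lower after NMDA and none higher, where 23.5% of the 49940 transcripts tested were called lower and 11.7% higher. In shPax6 retinas 3 of 24 were called lower and none higher, where 3.63% and 4.71% were. In the JNK3 KO 0 of 24 passed in limma, where 0.775% and 0.537% were called. At an unadjusted p under 0.05, 2 were lower and 1 higher there, where 5.18% and 5.25% of all transcripts were. Under PBS 0 of 24 passed in limma in shPax6 against WT retinas, where 1.79% of all transcripts were called lower and 0.937% higher. At an unadjusted p under 0.05, 5 were lower and 0 higher, where 9.35% and 4.81% of all transcripts were. In JNK3 KO against WT retinas under PBS 0 of 24 passed in limma as well, where 0.0741% and 0.112% were called. At an unadjusted p under 0.05, 1 was lower and 0 higher, where 2.9% and 3.9% of all transcripts were. The difference between responses was called lower for 2 of 24 against shPax6 (16.7% of all transcripts lower, 7.15% higher) and for 5 of 24 against JNK3 KO (16.6% and 9.05%). Transcript estimates were much less repeatable than gene levels. Scn8a-205, for example, had 0.89 and 5.99 FPKM in the 2 WT NMDA libraries, while the gene had 8.54 and 8.2.

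The transcripts of Scn2b, and those of Scn3b, had unlike values. Scn2b-202 (4656 bases) went from 12.54 and 11.64 to 0.79 and 2.15 FPKM in WT retinas (log2 difference -3.11, SE 0.46, limma adjusted p = 0.0012), whereas Scn2b-201 (3958 bases) had 3.16 and 4.03 FPKM under PBS and 3.28 and 4.36 after NMDA. In shPax6 retinas Scn2b-202 fell by 2.47 on the log2 scale (SE 0.46, limma adjusted p = 0.0154). Scn3b-201 and Scn8a-213 were also called lower there (limma adjusted p = 0.0239 and 0.00639). Under PBS they had 1.17 and 1.8 FPKM and 3.89 and 2.32 FPKM. Each was listed at 0 in both shPax6 NMDA libraries, so no fold is given. The gene Scn8a, by contrast, was called higher in that response. Scn3b-201 went from 3.38 and 4.32 FPKM to a listed 0 in both WT NMDA libraries, while Scn3b-203 had 3.11 and 1.7 FPKM under PBS and 2.34 and 1.99 after NMDA. Whether the 2 transcripts of a gene differed in response was not tested, and the split of reads between them is an estimate.

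Genes that work beside the channels give the surroundings of these values. The lists were written from general knowledge, with earlier results of these data known, and are described by counts against the shares of all genes given above. Of 11 potassium channel genes of the initial segment and node, which repolarize the axon, 9 fell in WT, 11 in shPax6 and 3 in JNK3 KO retinas after NMDA, and none rose. The named ones were Kcnab2 (-1.06, limma adjusted p = 7.01e-07), Kcna4 (-2.33, limma adjusted p = 0.00186) in WT retinas and Kcnc1 (-1.66, limma adjusted p = 7.98e-06) in shPax6 retinas, which differed by -1.58 in WT retinas (limma adjusted p = 2.04e-06). After length correction the counts were 9 lower and 2 higher in WT, 11 and 0 in shPax6, and 4 and 0 in JNK3 KO retinas.

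Of 15 scaffold and adhesion genes of the initial segment and node, 13 fell and 1 rose in WT retinas, 6 fell and 1 rose in shPax6 retinas and 3 fell in the JNK3 KO. Ank3, which encodes ankyrin-G, the scaffold that anchors sodium channels, went from 86.21 and 86.86 to 14.25 and 16.11 FPKM in WT retinas (log2 difference -2.51, SE 0.09, limma adjusted p = 6.22e-08). It was at 55.95 and 53.06 FPKM under PBS and 40.52 and 47.16 after NMDA in shPax6 retinas, and at 66.17 and 67.12 and then 76.24 and 82.39 FPKM in the JNK3 KO. These Ank3 values are not length-corrected, and the part of the WT length trend in them was not tested. Sptbn4, which encodes the beta-IV spectrin of the node, differed by -0.75 in WT retinas (limma adjusted p = 0.012), and Map1a, a microtubule-associated protein gene, fell in WT (-2.51, limma adjusted p = 3.46e-07), shPax6 (-1.44, limma adjusted p = 4.43e-05) and JNK3 KO retinas (-1.07, limma adjusted p = 0.00114). After length correction the WT counts for this list were 7 lower and 5 higher. Its median log2 difference was then -0.52, against -1.21 before, so the extent of its fall in WT retinas depends on that correction.

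Of 10 channel partners (FGF homologous factors, calmodulins, ubiquitin ligases and a syntrophin), 7 fell and 2 rose in WT, 5 fell in shPax6 and 3 fell in JNK3 KO retinas. Nedd4, a ubiquitin ligase, fell in WT retinas (-1.69, limma adjusted p = 5.67e-08), while its relative Nedd4l, whose product removes channels from the membrane, rose (0.56, limma adjusted p = 0.041). That rise is smaller than the shift of the median of all genes between FPKM (-0.09) and TPM (-0.68), a scaling in which each library sums to the same total. Calm3, one of the calmodulin genes, fell in shPax6 (-0.68, limma adjusted p = 2.22e-05) and JNK3 KO retinas (-0.45, limma adjusted p = 0.00115), as did Fgf11 (-0.35 and -0.44, limma adjusted p = 0.0287 and 0.0263). With length correction the counts for this list were 5 lower and 2 higher in WT, 6 and 0 in shPax6, and 3 and 0 in JNK3 KO retinas.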

How the data were processed

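RNA-seq of 12 mouse retina libraries, 6 groups of 2, was used. Per the paper's methods, poly(A) RNA was sequenced as paired ends, and the submitters' notes name STAR 2.7.1a, RSEM 1.3.3, GRCm38.p6 and edgeR 3.36.0. Per the file headers, the deposited values are gene and transcript FPKM, which are not counts, so the read depth behind a value is unknown and precision was judged from replicates (median absolute log2 difference 0.11 to 0.25 between the libraries of a group). Library strand is not given in the sources used here. The members and lists were chosen with earlier results of these data known.

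FPKM were put on the log2(FPKM + 0.1) scale, 16471 genes whose mean exceeded 1 FPKM in some group were kept, and 6 group means with 6 residual degrees of freedom were fitted with limma 3.58.1 (lmFit, eBayes with trend) under R 4.3.3. Figures used Python 3.11.15, pandas 2.3.3 and matplotlib 3.10.9. Calls were made at a Benjamini-Hochberg adjusted p under 0.05 over all genes. Fold changes on this scale understate the change of low genes. Length correction subtracted a lowess curve (span 0.3) of each library's deviation from the gene mean on log2 transcript length from GENCODE M21, which held 99.39% of genes. The rule for named genes took all 7 channel genes, Pax6 and Mapk10 as targeted genes, for each companion list and response the called genes with the smallest and the largest adjusted p, and for each channel gene the 2 protein-coding genes most like it by Pearson r. Some results for items that this rule took are not reported here. The transcripts and Ank3 outside WT retinas were added after their values were seen. Replicate numbers did not pair the libraries (correlation of replicate differences -0.1 to 0.09 over 15 pairs of groups). On simulated data for the WT response over 16471 genes, 52 of 100 genes changed by 1 log2 unit and 76 of 100 changed by 2 were found, with 5 false calls. In the data 33.8% of genes were called lower and 26% higher in that response, far more than the 100 changed here. The adjusted threshold therefore differs, and these rates do not give the power in the data. Alternatives covered the pseudocount, the filter, TPM, 75th-percentile and quantile scaling, transcript length, the error estimate, a replicate block, summed transcripts, a fold limit and leaving out each library. The study's ChIP-seq was left out.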

Additional observations from a re-analysis of the deposited data

Results flagged for a closer look

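The response to NMDA differed between WT and another genotype for 5 channel genes by a direct test of the difference (limma, adjusted p under 0.05 over all genes). Over all genes tested, 31.4% were called lower and 18.3% higher in WT minus shPax6, and 27.9% and 23.5% in WT minus JNK3 KO. Against shPax6, the call of Scn3a held under 15 of 26 alternatives and that of Scn3b under 9 of 26. Against JNK3 KO, these calls held under 22 and 17 of 26. The WT response minus the shPax6 response was -2.68 for Scn1a, -1.96 for Scn2a, -2.36 for Scn3a, -1.59 for Scn8a and 0.76 for Scn3b on the log2 scale. The WT response minus the JNK3 KO response was -3.51 for Scn1a, -2.81 for Scn2a, -2.74 for Scn3a, -1.58 for Scn8a and -0.84 for Scn3b. Both sets share the WT libraries, in which the response of all genes followed transcript length. With length correction, those of Scn1a in both sets, of Scn2a against JNK3 KO and of Scn3b against shPax6 were still called.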

How the results depend on the processing

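Of the 7 falls in WT retinas, those of 6 genes were called under every alternative run, and Scn8a changed sign to 0.09 with length correction. Other values that changed sign were -0.03 (Scn2b, WT minus shPax6, TPM), 0.18 and 0.31 (Scn4b and Scn2b, WT minus JNK3 KO, length correction) and 0.2 (Scn3a, shPax6 response, without shPax6 NMDA library 2, against -1.73 without library 1). TPM moved the median of all genes in the WT response from -0.09 to -0.68, and in WT minus shPax6 and WT minus JNK3 KO from -0.28 to -0.82 and from -0.03 to -0.64. The JNK3 KO response, with 3 genes lower, had 1 with no filter, 0 with adjusted p and a 2-fold limit and 1 with unadjusted p and that limit. The 4 lower in shPax6 retinas became 2 with the spread of the groups compared alone. The 5 lower in shPax6 PBS against WT PBS became 1 with that spread and 2 under either fold limit. With length correction, genes called lower numbered 1 in WT minus shPax6 and 2 in WT minus JNK3 KO. The call of Scn8a higher in shPax6 retinas became 0 calls with no filter, TPM, 75th-percentile scaling, quantile normalization, own spread, no trend, a replicate block and either fold limit. The call of Scn3b higher in WT minus shPax6 became 0 with a pseudocount of 1 or 0.5, no filter, TPM, own spread and either fold limit, and 2 with quantile normalization or length correction.

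Leaving out each library in turn gave 0 to 4 lower in the JNK3 KO response, 4 to 5 lower and 0 to 1 higher in the shPax6 response, 2 to 5 lower in shPax6 against WT under PBS, 3 to 4 lower and 0 to 1 higher in WT minus shPax6, and 4 to 5 lower in WT minus JNK3 KO. Where that left a group with 1 library, it was assumed to vary like the other groups. With the replicate block, 7 genes were lower in WT, 4 in shPax6 and 3 in JNK3 KO retinas, 4 in shPax6 PBS against WT PBS and 0 higher in shPax6 retinas. It ended the calls of Scn8a in shPax6 retinas (0.33, adjusted p = 0.0558) and of Scn2b under PBS (-0.7, adjusted p = 0.0538) and no other. The causes of these changes were not tested beyond what each setting changes by construction. Since only FPKM were used, counting error at low levels, such as those of Scn4b, is unknown.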

Other observations

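Genes that set the sodium gradient were measured in the same libraries. Of 12 genes of the sodium pump and of sodium exchange, 10 fell and 1 rose after NMDA in WT retinas, 4 fell and 4 rose in shPax6 retinas, and 3 fell in JNK3 KO retinas. Over all genes, 33.8% were called lower and 26% higher in WT, 11% and 19.1% in shPax6, and 6.1% and 4.33% in JNK3 KO. With length correction the WT counts for this list were 3 lower and 2 higher, where 22.1% and 23.8% of all genes were. Atp1b1, a beta subunit of the sodium pump, had the smallest adjusted p of this list in each response, with log2 differences of -2.15 (SE 0.1, limma adjusted p = 1.84e-07) in WT, -1.88 (SE 0.1, limma adjusted p = 2.36e-06) in shPax6 and -0.91 (SE 0.1, limma adjusted p = 0.000659) in JNK3 KO retinas. Atp1b2, another beta subunit of the pump, differed by -0.57 in WT retinas (limma adjusted p = 1.79e-06). Its difference was 0.12 in shPax6 and -0.15 in JNK3 KO retinas (limma adjusted p = 0.0428 and 0.0326).

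Of the 7 tested genes for other sodium channel subunits and the sodium leak channel NALCN with its partners, 6 fell in WT, 4 in shPax6 and 2 in JNK3 KO retinas. Over all genes, 33.8%, 11% and 6.1% were called lower in these responses. With length correction the counts for this list were 5, 4 and 1 lower, where 22.1%, 15.2% and 5.18% of all genes were. Its median in WT retinas was then -1.07, against -1.57 before. Unc80, a subunit of the leak channel, fell in WT retinas (-2.53, limma adjusted p = 9.55e-07), and Fam155a, another, fell in WT (-1.54, limma adjusted p = 5.28e-06) and shPax6 retinas (-1.49, limma adjusted p = 3.14e-05). Scn7a, whose product senses sodium rather than voltage, fell in WT (-3.58, limma adjusted p = 1.09e-05) and JNK3 KO retinas (-1.2, limma adjusted p = 0.0438) and differed by 0.21 in shPax6 retinas (limma adjusted p = 0.656). Scn4a, known best from skeletal muscle, fell in WT (-1.07, limma adjusted p = 0.00288) and shPax6 retinas (-0.87, limma adjusted p = 0.0186).

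Across the 12 libraries, the protein-coding genes whose log2 levels were most like those of Scn1a were Snap25 (Pearson r = 0.996) and Myt1l (0.992), and for Scn2a they were Snap25 (0.993) and Gria2 (0.992). For Scn8a they were Cacna2d4 (0.986) and Vgll4 (0.985). Scn2b was most like Rims4 and Kcnc1 (both 0.987), Scn3b like Pnmal1 (0.991), Scn3a like Ptprk (0.984) and Scn4b like Syt11 (0.977), each among 13874 genes. Among the channel genes themselves, Scn1a and Scn2a had r = 0.984 and Scn2b and Scn3b 0.964, while Scn8a had r between -0.234 and -0.142 with the beta genes. These values describe 12 libraries that share groups, depth and the length trend of WT NMDA libraries.

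RefSeq promoter windows (GRCm38.p6) of 250 bases upstream of a start were at hand for 5 of the 7 genes, 7 windows in all. None held TGANTCA (AP-1), TGACGTCA (the cAMP response element), GGACAGC (a half-site of RE1) or CACGTG (the E-box) on either strand. Of 32851 such windows, 6.75%, 1.55%, 5.28% and 6.02% did. Medians over all windows were 52.4% GC and 6 CpG. Scn8a had 2 windows, the more upstream (68% GC, 30 CpG) at a start that lies in 1 annotated transcript and the other (53.2% GC, 9 CpG) at one that lies in 11. Scn2a also had 2 windows (29.6% GC with 2 CpG and 53.2% GC with 9 CpG), and Scn4b (66% GC, 23 CpG), Scn1a (46.8% GC, 4 CpG) and Scn2b (38.4% GC, 1 CpG) had 1 each. The start of the first Scn2a window lies in no annotated transcript of the gene, and that of its other window in 1.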
